A study of Nicotiana tabacum with 15 samples.

Results

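The abscisic acid (ABA) pathway genes described here are 9 tobacco gene models, 5 annotated to protein phosphatase 2C (PP2C) and 4 to the SnRK2 family of protein kinases, named for their likeness to the yeast kinase SNF1, in the study's scheme of hormone signalling. They were taken by their identifiers from a table of 69500 gene models, and all 9 were found in it. Seedling root RNA was sequenced from the hybrids GJ (G70 × Jiucaiping No.2, labelled G70xJCP) and KJ (K326 × Jiucaiping No.2, labelled K326xJCP), from their female parents G (G70) and K (K326), and from their shared male parent J (Jiucaiping No.2, labelled JCP), with 3 libraries per genotype. The labels name no transgene and no treatment. Because both hybrids have J as father, their comparisons with the parents share the 3 J libraries. Sample titles name leaf, while the tissue entry of the labels and the methods of the study give root, and this could not be checked against marker genes because no table at hand pairs these identifiers with names. For the same reason the PP2C and SnRK2 annotation is that of the study, and no sequence of these genes is shown. The study placed these 9 genes in its scheme because it found them overdominant in both hybrids, that is, outside the range of the parents, in these same libraries. Differences between a hybrid and its own parents, and calls made from them, are therefore given as a description, with no p-value printed.

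ABA is the plant hormone of drought and salt responses, and in roots it acts on root growth and on the emergence of lateral roots. In the pathway as known from Arabidopsis, ABA binds receptors of the PYR/PYL family, and the occupied receptor then binds and blocks phosphatases of the PP2C type. These phosphatases otherwise remove phosphate from SnRK2 kinases and keep them inactive, so a PP2C is a brake on the pathway and an SnRK2 is the kinase that it holds back. Freed SnRK2 kinases phosphorylate transcription factors such as the ABFs, and genes of PP2C phosphatases are themselves induced by ABA in Arabidopsis. Both families also have members outside the ABA response, and the files do not say to which branch the 9 genes belong.

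Expression was given as FPKM, mapped fragments scaled to gene length and library size, so levels can be set side by side between genes. In bulk RNA, fewer cells that express a gene and less RNA per cell cannot be told apart. The depth of a single gene's value is unknown, because the table holds no read counts. Between libraries, the median-of-ratios factor, which measures how a library's typical gene compares with the other libraries, was 1.16 in G replicate 1, 1.17 in K replicate 2 and 1.09 in J replicate 2. In the other 6 parental libraries it lay between 0.976 and 1.06, in GJ between 0.939 and 1.02, and in KJ between 0.823 and 0.898. In the hybrids the lowest factors were 0.823 in KJ replicate 1 and 0.939 in GJ replicate 1. Values without the 3 parental libraries together, or without a single library, are given where a call or the size of a difference turned on them.

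All 5 PP2C genes had higher means in GJ and in KJ than in any parent, while the 4 SnRK2 genes divided. Nitab4.5_0005632g0010 was higher in both hybrids, and Nitab4.5_0000905g0170, Nitab4.5_0006481g0010 and Nitab4.5_0000506g0150 were lower. Mean levels over the 15 libraries spanned from 1.04 FPKM for Nitab4.5_0000506g0150 to 38.9 FPKM for Nitab4.5_0000647g0160. The genes differed in how far apart hybrids and parents lay, from complete separation of the 6 hybrid from the 9 parental libraries in 6 genes, 4 higher and 2 lower (2.69% and 7.72% of all genes tested), to overlapping ranges in Nitab4.5_0000647g0160, Nitab4.5_0008967g0020 and Nitab4.5_0006481g0010.

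**Figure D1:**
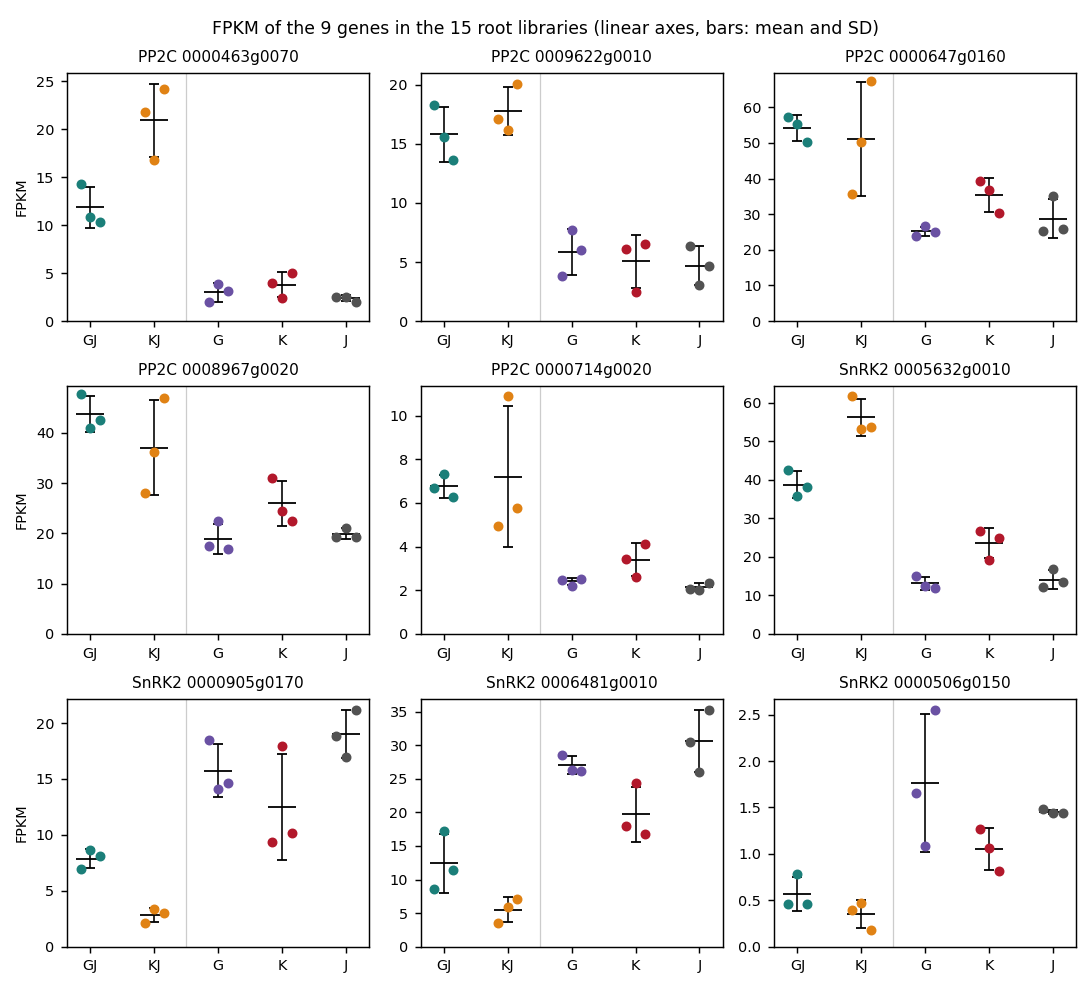
FPKM (linear axes, each from 0) of the 5 PP2C and 4 SnRK2 genes, labelled without the prefix Nitab4.5_. Each point is a library, bars are the mean and SD of 3 libraries, and the hybrids GJ and KJ stand left of the line and the parents G, K and J right of it. The 5 PP2C genes and the SnRK2 gene Nitab4.5_0005632g0010 have higher means in both hybrids and the other 3 SnRK2 genes lower ones, for example 2.86 FPKM in KJ against 19.0 in J for Nitab4.5_0000905g0170.

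The PP2C gene with the widest ratio of hybrid to parental levels was Nitab4.5_0000463g0070. It had 14.3, 10.8 and 10.3 FPKM in GJ (replicates 1 to 3) and 21.8, 16.8 and 24.2 FPKM in KJ, against 1.96, 3.90 and 3.09 FPKM in G, 3.91, 2.45 and 5.02 FPKM in K and 2.55, 2.51 and 2.00 FPKM in J. Every hybrid library was above every parental library, and every KJ library above every GJ library. The mean was 4.43 times the mean FPKM of both parents in GJ and 6.80 times in KJ. Nitab4.5_0009622g0010 had 18.3, 15.6 and 13.6 FPKM in GJ and 17.2, 16.2 and 20.1 FPKM in KJ, against 3.82, 7.70 and 6.0 FPKM in G, 6.10, 2.49 and 6.55 FPKM in K and 6.33, 3.06 and 4.66 FPKM in J. Here too the hybrid libraries were all above the parental ones, but GJ and KJ overlapped, and so did the 3 parents. Its lowest parental values were those of K replicate 2, J replicate 2 and G replicate 1, each the lowest of its genotype and each the library with the highest factor of its genotype, and the part of these libraries' scale in this gene's spread was not tested. It was also the most variable of the 9 genes within genotypes, with a pooled SD of 0.40 on the log2(FPKM + 1) scale against a median of 0.23 over all genes tested.

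The most abundant PP2C genes were Nitab4.5_0000647g0160 and Nitab4.5_0008967g0020. Nitab4.5_0000647g0160 had 57.2, 55.2 and 50.2 FPKM in GJ and 35.6, 50.3 and 67.4 FPKM in KJ, against 24.0, 26.6 and 25.0 FPKM in G, 39.4, 36.7 and 30.2 FPKM in K and 25.4, 35.1 and 25.8 FPKM in J. All GJ libraries were above all libraries of G and J, whereas KJ replicate 1 lay within the range of K. Nitab4.5_0008967g0020 had 47.7, 40.9 and 42.5 FPKM in GJ and 28.1, 36.2 and 47.0 FPKM in KJ, against 17.4, 22.4 and 16.8 FPKM in G, 31.1, 24.5 and 22.4 FPKM in K and 19.2, 21.2 and 19.3 FPKM in J. The same KJ library was again within the range of K. Both genes ran in parallel, with Nitab4.5_0000647g0160 between 1.18 and 1.66 times Nitab4.5_0008967g0020 in every library. Whether reads are shared between them could not be checked without their sequences.

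The PP2C gene of lowest level was Nitab4.5_0000714g0020, with 6.67, 7.33 and 6.29 FPKM in GJ and 4.94, 10.9 and 5.77 FPKM in KJ, against 2.49, 2.20 and 2.51 FPKM in G, 3.45, 2.61 and 4.12 FPKM in K and 2.07, 2.01 and 2.34 FPKM in J. All hybrid libraries were above all parental ones, and the K libraries above those of G and J. The KJ mean of 7.20 ± 3.23 FPKM (SD, n = 3) rested in large part on replicate 2, the other KJ libraries being lower than all 3 GJ libraries.

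Among the SnRK2 kinases, Nitab4.5_0005632g0010 had 42.6, 35.7 and 38.0 FPKM in GJ and 61.8, 53.1 and 53.8 FPKM in KJ, against 15.0, 12.4 and 12.0 FPKM in G, 26.6, 19.2 and 25.0 FPKM in K and 12.1, 16.8 and 13.4 FPKM in J. The genotypes ran in the order KJ, GJ, K, J, G, and the ranges of neighbours overlapped only for J and G. The mean was 2.85 times that of both parents in GJ and 2.98 times in KJ. Its pooled SD within genotypes was 0.18 on the log2(FPKM + 1) scale, the lowest of the 9 genes.

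Nitab4.5_0000905g0170 ran the other way, with 6.93, 8.66 and 8.08 FPKM in GJ and 2.15, 3.38 and 3.04 FPKM in KJ, against 18.5, 14.1 and 14.6 FPKM in G, 9.33, 17.9 and 10.1 FPKM in K and 18.9, 16.9 and 21.2 FPKM in J. All hybrid libraries were below all parental libraries, and all KJ below all GJ libraries. The mean of both parents was 2.20 times the mean of GJ and 5.51 times that of KJ. Nitab4.5_0006481g0010 had 8.67, 17.2 and 11.4 FPKM in GJ and 3.50, 5.97 and 7.16 FPKM in KJ, against 28.6, 26.3 and 26.2 FPKM in G, 17.9, 24.4 and 16.7 FPKM in K and 30.5, 26.0 and 35.3 FPKM in J. Each hybrid was below both of its own parents in every library, while GJ replicate 2 overlapped K, which is not a parent of GJ. Nitab4.5_0000905g0170 was at 0.606 ± 0.0955 of Nitab4.5_0006481g0010 (SD over 15 libraries), from 0.425 in KJ replicate 3 to 0.799 in GJ replicate 1. In both genes K replicate 2 was nearer to G and J than the other K libraries were.

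The weakest SnRK2 gene, Nitab4.5_0000506g0150, had 0.46, 0.78 and 0.46 FPKM in GJ and 0.40, 0.47 and 0.18 FPKM in KJ, against 1.66, 1.08 and 2.55 FPKM in G, 1.27, 1.06 and 0.82 FPKM in K and 1.48, 1.44 and 1.44 FPKM in J. The hybrid libraries were all below the parental ones. It passed the filter on low values, at least 1 FPKM in at least 3 libraries, only through the parents, and its fold change is understated by the constant that is added before taking logarithms.

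Genotypes were compared as mean log2(FPKM + 1) with limma over the 37232 genes that passed this filter, all 9 genes among them. A gene counted as called when its p, adjusted after Benjamini and Hochberg, did not exceed 0.05 and its difference reached 1 on the log2 scale in size. As middle parent served the average of the 2 parents on that scale. In GJ, 4 of 5 PP2C genes and 1 of 4 SnRK2 genes were called higher than the middle parent and 2 of 4 SnRK2 genes lower, where 2.4% and 2.16% of all genes tested were called. In KJ, 3 of 5 PP2C genes and 1 of 4 SnRK2 genes were called higher and 2 of 4 SnRK2 genes lower, where 4.18% and 6.61% of all genes were called. Since the study drew the genes for this contrast, nothing can be read from these shares.

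Of the 9 genes, Nitab4.5_0000463g0070 had the largest difference in size in both hybrids, at 1.82 ± 0.20 (SE) in GJ and 2.46 ± 0.20 in KJ, rank 188 and rank 117 from the top of all genes tested. The PP2C median was 1.25 in GJ and 1.08 in KJ, while the median of all genes tested was -0.06 in GJ and -0.24 in KJ. Nitab4.5_0009622g0010 differed by 1.46 ± 0.26 in GJ and 1.74 ± 0.26 in KJ, and Nitab4.5_0000714g0020 by 1.25 ± 0.19 and 1.08 ± 0.19. Nitab4.5_0008967g0020 was called in GJ with 1.14 ± 0.15 and stayed under the fold limit in KJ with 0.66 ± 0.15. Nitab4.5_0000647g0160 stayed just under the limit in GJ with 0.99 ± 0.17, and had 0.63 ± 0.17 in KJ. Its value in GJ passed the limit with median-of-ratios scaling, at 1.07. Without KJ replicate 2 the difference of Nitab4.5_0000714g0020 in KJ was 0.78 and no longer called.

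The SnRK2 median was -0.88 in GJ and -1.37 in KJ, over genes on both sides of 0. Nitab4.5_0005632g0010 differed by 1.45 ± 0.13 in GJ and 1.58 ± 0.13 in KJ. For Nitab4.5_0000905g0170 the difference was -1.04 ± 0.18 in GJ and -2.07 ± 0.18 in KJ, and for Nitab4.5_0006481g0010 it was -1.19 ± 0.21 and -2.00 ± 0.21. In KJ these were ranks 158 and 195 from the bottom of all genes tested. With median-of-ratios scaling, which brings the median of all genes in both hybrids to 0.00, the values in KJ were 2.71 for Nitab4.5_0000463g0070, 1.86 for Nitab4.5_0005632g0010, -1.84 for Nitab4.5_0000905g0170 and -1.74 for Nitab4.5_0006481g0010, with the same 6 genes called. In GJ the calls of Nitab4.5_0000905g0170 and Nitab4.5_0006481g0010 were near the limit. That of Nitab4.5_0000905g0170 ended without GJ replicate 1 at -0.96, without G replicate 1 at -0.98, without J replicate 3 just short of the limit and with median-of-ratios scaling at -0.97, and that of Nitab4.5_0006481g0010 without GJ replicate 1 at -0.98. The difference of Nitab4.5_0000506g0150 was -0.72 ± 0.16 in GJ and -0.74 ± 0.16 in KJ, short of the fold limit in both, and became -1.35 and -1.62 with 0.1 in place of 1 as the added constant.

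**Figure D2:**
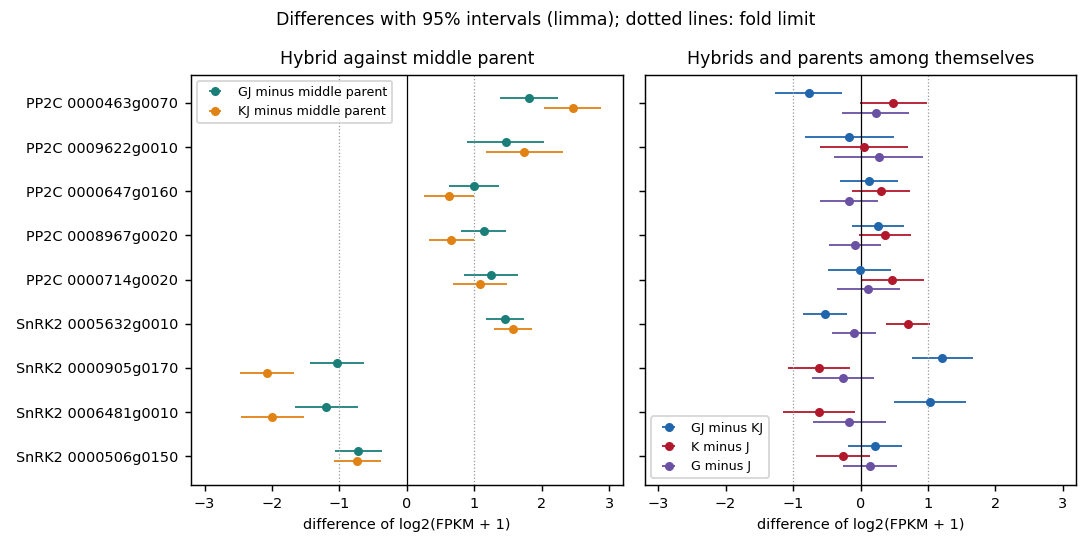
Differences of mean log2(FPKM + 1) with 95% intervals from limma, each hybrid minus its middle parent (left) and GJ minus KJ, K minus J and G minus J (right), with dotted lines at the fold limit of 1. On the left the PP2C genes and SnRK2 gene Nitab4.5_0005632g0010 lie above 0 in both hybrids and the other 3 SnRK2 genes below; on the right Nitab4.5_0000905g0170 stands out with 1.21 between GJ and KJ.

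Called the same way against each parent taken alone were 6 of the 9 genes in GJ and 5 in KJ. Being beyond both parents is what the study drew the genes for, so these calls and ranges only describe the members and support nothing. In GJ these were the PP2C genes Nitab4.5_0000463g0070, Nitab4.5_0009622g0010, Nitab4.5_0008967g0020 and Nitab4.5_0000714g0020 and the SnRK2 gene Nitab4.5_0005632g0010, all higher, and Nitab4.5_0006481g0010, lower. Of all genes tested, 1.27% were called higher than both parents in GJ and 0.924% lower. In KJ, Nitab4.5_0000463g0070, Nitab4.5_0009622g0010 and Nitab4.5_0005632g0010 were higher and Nitab4.5_0000905g0170 and Nitab4.5_0006481g0010 lower, where 2.5% and 4.43% of all genes were called. By range alone, all 9 genes in GJ lay outside all libraries of G and J, 6 higher and 3 lower, where 9.42% and 13.1% of all genes did. In KJ 4 lay above and 3 below all libraries of K and J, where 9.35% and 32.8% of all genes did, and the PP2C genes Nitab4.5_0000647g0160 and Nitab4.5_0008967g0020 overlapped. All 6 hybrid libraries were above all 9 parental libraries in the PP2C genes Nitab4.5_0000463g0070, Nitab4.5_0009622g0010 and Nitab4.5_0000714g0020 and the SnRK2 gene Nitab4.5_0005632g0010, and below them in Nitab4.5_0000905g0170 and Nitab4.5_0000506g0150.

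The difference between the hybrids was not used directly in choosing the genes. The kinase gene Nitab4.5_0000905g0170 was called higher in GJ than in KJ, with a difference of 1.21 ± 0.21 (SE), higher in 3 of 3 GJ libraries, by limma (Benjamini-Hochberg adjusted p = 0.0232, two-sided). It was the only call among the 9 genes, where 0.438% of all genes were called, and the call ended without GJ replicate 2 (difference 1.15, adjusted p = 0.103), GJ replicate 3 (1.20, adjusted p = 0.104), KJ replicate 1 (1.07, adjusted p = 0.122) or KJ replicate 3 (1.25, adjusted p = 0.0747), while the difference itself stayed above 1. Nitab4.5_0006481g0010 was 1.03 ± 0.25 higher in GJ (adjusted p = 0.0816) and, among the fits without single libraries, was called only without GJ replicate 1, with 1.24 (adjusted p = 0.0402) in the same limma test. For Nitab4.5_0000463g0070 and Nitab4.5_0005632g0010, GJ minus KJ was -0.77 ± 0.23 (limma adjusted p = 0.123) and -0.53 ± 0.15 (limma adjusted p = 0.116). In the 4 genes named so far in this comparison no GJ library overlapped a KJ library, with 2 of 9 genes higher and 2 lower in GJ. Over all genes tested, GJ lay wholly above KJ in 23.8% and wholly below in 7.28%, and the median difference was 0.14. The separation of ranges is therefore given as a description and not as a result about these genes. The PP2C genes Nitab4.5_0000647g0160 and Nitab4.5_0008967g0020 differed by 0.13 (95% interval -0.30 to 0.56) and 0.26 (-0.13 to 0.64), Nitab4.5_0009622g0010 by -0.17 (-0.82 to 0.49) and Nitab4.5_0000714g0020 by -0.01 (-0.48 to 0.45), so differences up to these bounds remain possible.

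To set each hybrid against its own cross, the distance of KJ from its middle parent was subtracted from the distance of GJ from its own. The study drew the genes for lying beyond the parents in both hybrids, so that choice also bears on this difference. Its p-values are therefore a description. By limma 0 of 9 genes were called in this comparison, where 0.508% of all genes were. At an unadjusted p under 0.05 there were 4 of 9 genes, where 21.6% of all genes passed, namely the PP2C genes Nitab4.5_0000463g0070 (-0.64) and Nitab4.5_0008967g0020 (0.48) and the SnRK2 genes Nitab4.5_0000905g0170 and Nitab4.5_0006481g0010 (0.80). The largest difference was again that of Nitab4.5_0000905g0170, at 1.03 ± 0.24 (limma adjusted p = 0.0647). Its call depended on the setting, with an adjusted p of 0.0445 without G replicate 1 and of 0.0449 with an added constant of 0.1. The difference fell under the fold limit with median-of-ratios scaling (0.88) and quantile normalization (0.83), and was not called there. Over all genes tested the median of this comparison was 0.16. With median-of-ratios scaling Nitab4.5_0008967g0020 had 0.27 and Nitab4.5_0006481g0010 0.62, while the difference of Nitab4.5_0000463g0070 grew in size. The SnRK2 gene Nitab4.5_0005632g0010, higher in KJ than in GJ by level, had departures of 1.45 in GJ and 1.58 in KJ, with a difference of -0.13 (95% interval -0.49 to 0.24). Its level in K was also above that in G.

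The study drew the genes for lying beyond both parents in these same parental libraries, so that choice also bears on differences between parents. Counts and p-values between parents are therefore a description. Between parents, limma called 0 of 9 genes for G against J, where 0.943% of all genes were called, and 0 of 9 genes had an unadjusted p under 0.05, where 8.3% of all genes did. For K against J it called 0 of 9 as well, against 0.416% of all genes. At an unadjusted p under 0.05 there were 4 of 9 genes, where 8.33% of all genes passed. These were Nitab4.5_0005632g0010 with 0.70 ± 0.15 (limma adjusted p = 0.0755) and Nitab4.5_0000714g0020 with 0.47 ± 0.21 (limma adjusted p = 0.590), higher in K, and Nitab4.5_0000905g0170 and Nitab4.5_0006481g0010, both with a difference of -0.62 (limma adjusted p = 0.377 and 0.504), lower in K. Without G replicate 1, J replicate 2 and K replicate 2 the K against J differences were 0.96 for Nitab4.5_0005632g0010 (limma adjusted p = 0.0105), -0.97 for Nitab4.5_0000905g0170 (limma adjusted p = 0.0385) and -0.88 for Nitab4.5_0006481g0010 (limma adjusted p = 0.274), still short of the fold limit. For G against K, 0 of 9 genes passed both limits, against 0.808% of all genes. At an unadjusted p under 0.05 there were 4 of 9 genes, where 11.5% of all genes passed, among them the PP2C genes Nitab4.5_0000647g0160 (-0.47) and Nitab4.5_0008967g0020 (-0.44) and the SnRK2 gene Nitab4.5_0000506g0150 (0.40). Nitab4.5_0005632g0010 was 0.79 ± 0.15 lower in G than in K (a difference of -0.79, limma adjusted p = 0.0197), short of the fold limit. Without the same 3 libraries this difference was -1.02 and was called (limma adjusted p = 0.00359). In Nitab4.5_0005632g0010 all 3 K libraries, with 19.2 to 26.6 FPKM, were above the 6 libraries of G and J, with 12.0 to 16.8 FPKM. They were also above in the PP2C genes Nitab4.5_0008967g0020 and Nitab4.5_0000714g0020, but narrowly. The nearest values there were 22.42 FPKM in K against 22.40 in G, and 2.61 in K against 2.51 in G. In Nitab4.5_0006481g0010 all K libraries were below. Of all genes tested, 3.1% lay above in K in this way and 1.37% below.

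The sums over the 5 PP2C and the 4 SnRK2 genes show how the opposite moves of these SnRK2 genes met. They cover only the genes drawn by the study and not the whole families. The summed FPKM of the 5 PP2C genes was 132 ± 10.8 in GJ and 134 ± 28.6 in KJ, against 55.3 ± 6.75 in G, 73.7 ± 8.91 in K and 57.8 ± 5.23 in J (SD over 3 libraries, here and in the sums and ratios that follow). The lowest hybrid library, with 107.6 FPKM, was above the highest parental one, with 84.0 FPKM. In contrast, the sum of the 4 SnRK2 genes was 59.6 ± 2.37 in GJ and 65.0 ± 2.58 in KJ, against 57.6 ± 5.24 in G, 56.8 ± 5.13 in K and 65.2 ± 5.46 in J, and all 15 libraries lay between 52.7 and 71.4 FPKM. The 3 KJ libraries, with 62.9 to 67.9 FPKM, were above those of GJ, with 57.9 to 62.3, and above those of K, with 52.7 to 62.5, while they overlapped J, with 61.1 to 71.4, and GJ overlapped each of the 3 parents. These sums are on the FPKM scale, and sums after median-of-ratios scaling were not made. The factor was 0.823 to 0.898 in KJ, below all other libraries, so such scaling would raise the KJ sums relative to the others. The composition of the SnRK2 sum, which does not move with the scaling of a library, differed as well. Nitab4.5_0005632g0010 made up 65.2 ± 7.66% of the SnRK2 sum in GJ and 86.4 ± 4.04% in KJ, against 22.7 ± 0.939% in G, 42.1 ± 9.97% in K and 21.8 ± 4.85% in J. The highest parental share was 48.3% in K replicate 1 and the lowest hybrid share 57.3% in GJ replicate 2. Within K the share was 30.6% in replicate 2, the K library with the highest factor, and 48.3% and 47.4% in the others.

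**Figure D3:**
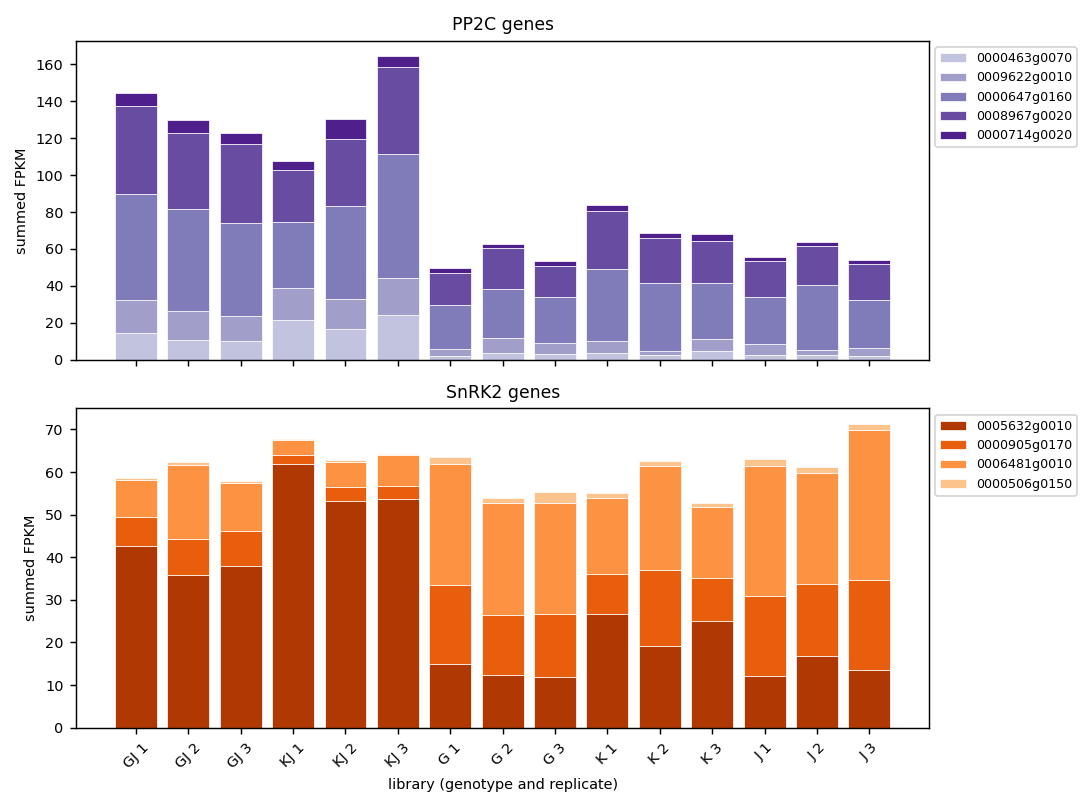
Summed FPKM per library of the 5 PP2C genes (upper) and the 4 SnRK2 genes (lower), each bar a library and each shade a gene, labelled without the prefix Nitab4.5_. The PP2C bars reach from 107.6 to 164 FPKM in the hybrids against 49.7 to 84.0 in the parents, whereas the SnRK2 bars stay between 52.7 and 71.4 FPKM and Nitab4.5_0005632g0010 fills most of them in the hybrids.

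The ratio of the PP2C sum to the SnRK2 sum was 2.46, 2.08 and 2.12 in GJ and 1.59, 2.07 and 2.56 in KJ, against 0.780, 1.16 and 0.965 in G, 1.52, 1.10 and 1.30 in K and 0.882, 1.04 and 0.759 in J. The hybrids were all above the parents, but KJ replicate 1 and K replicate 1 nearly met. On the log2 scale GJ was 1.27 above the mean of its parents, with a pooled SD within genotypes of 0.23, and KJ 0.92, with 0.28. A ratio within a library does not move with the scaling of that library, and with median-of-ratios scaling both values were the same. The ratio did depend on which SnRK2 gene it was set against. Without Nitab4.5_0005632g0010 the differences were 2.45 in GJ and 3.28 in KJ. Against the summed FPKM of the other 3 SnRK2 genes, the PP2C sum was 6.68 ± 2.10 times as high in GJ and 15.6 ± 2.26 times in KJ, and 1.25 ± 0.246 times in G, 2.33 ± 0.690 times in K and 1.16 ± 0.258 times in J. Genes were chosen for their differences in these libraries, so these values are a description and were given no test.

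**Figure D4:**
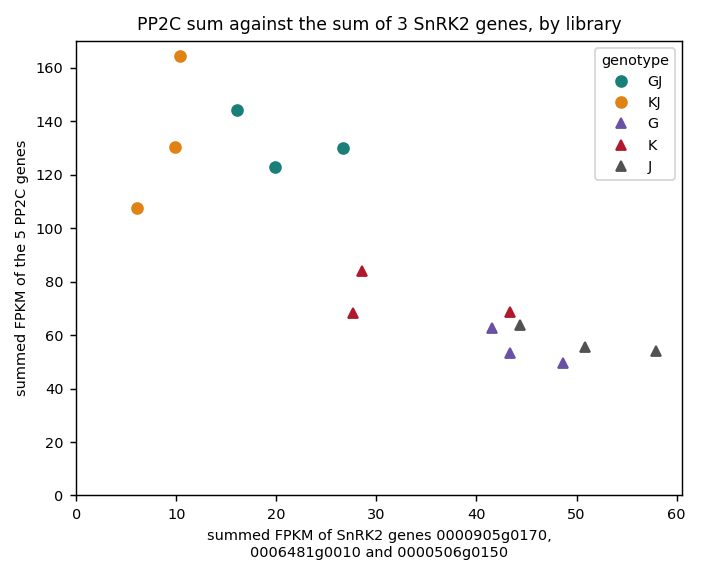
Summed FPKM of the 5 PP2C genes (y axis) against that of the 3 SnRK2 genes with lower levels in the hybrids (x axis), both linear from 0. Each point is a library, circles are hybrids and triangles parents. The KJ libraries lie at 6.05 to 10.4 FPKM on the x axis and the GJ libraries at 16.1 to 26.6, with PP2C sums of at least 107.6 FPKM, against 27.7 to 57.9 and at most 84.0 FPKM in the parents.

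Correlations between the families were taken within hybrids and within parents, because both sets form separate clusters, and are descriptions without p-values. Both family means of a point share the scaling of that library, and points of 1 genotype also share their genotype. For each family the mean of the standardised log2(FPKM + 1) values was used. The SnRK2 mean includes Nitab4.5_0005632g0010, although that gene ran against the others. Over the 6 hybrid libraries the PP2C and SnRK2 means had r = -0.23 (Spearman's rho = -0.31) and r = -0.40 without KJ replicates 1 and 3, the libraries farthest from the PP2C median. Leaving out KJ replicate 3 alone gave 0.16, so the sign in the hybrids was not the same in all subsets. Over the 9 parental libraries r was -0.91 (rho = -0.92), -0.90 without K replicates 1 and 3, and -0.94 without G replicate 1, J replicate 2 and K replicate 2. With median-of-ratios scaling the parental value was -0.62, so its size depends on the scale of the libraries. After each library's deviation from its genotype mean was taken, r over 15 libraries was -0.33 (rho = -0.41) and -0.52 without KJ replicate 1 and K replicate 2, and it was -0.12 over the 12 libraries left without G replicate 1, J replicate 2 and K replicate 2. With Nitab4.5_0005632g0010 left out of the SnRK2 mean, r was -0.94 in the parents, -0.19 (rho = -0.03) in the hybrids and -0.31 among the deviations.

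By single genes, all 15 pairs of a PP2C gene with one of the 3 lower SnRK2 genes had a negative r among the 9 parental libraries, from -0.91 to -0.01. Among the 6 hybrid libraries 8 of 15 were negative, and among the deviations 9 of 15. The most negative pair in the parents, Nitab4.5_0000463g0070 with Nitab4.5_0000905g0170, was also the most negative in the other sets, with r = -0.93 in the hybrids and -0.79 among deviations. Within the SnRK2 family, Nitab4.5_0005632g0010 correlated negatively with each of the other 3 genes, with r from -0.99 to -0.66 in the hybrids, from -0.86 to -0.58 in the parents and from -0.64 to -0.10 among deviations. The other 3 had a positive r with each other in every set, from 0.60 to 0.92 in the hybrids and from 0.33 to 0.93 in the parents. Among deviations r was 0.75 for Nitab4.5_0000905g0170 with Nitab4.5_0006481g0010. It was only 0.06 and 0.11 for these genes with Nitab4.5_0000506g0150.

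In 3 pairs the genes varied together within genotypes. Among the deviations r was 0.85 for Nitab4.5_0000647g0160 and Nitab4.5_0008967g0020, 0.80 for Nitab4.5_0000463g0070 and Nitab4.5_0009622g0010, and 0.75 for the SnRK2 genes Nitab4.5_0000905g0170 and Nitab4.5_0006481g0010. Over all 15 libraries, Nitab4.5_0000647g0160 and Nitab4.5_0008967g0020 were each the gene most like the other among 37231 genes, with r = 0.97. For Nitab4.5_0000905g0170 only 2 genes were more alike than Nitab4.5_0006481g0010, and in the other direction 3, with r = 0.98. For Nitab4.5_0009622g0010, 16 genes were more alike than Nitab4.5_0000463g0070, and in the other direction 74, with r = 0.94. These ranks over all libraries include the difference between hybrids and parents.

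Among 21936 other genes averaging 5 FPKM or more, those most like the PP2C mean over the 15 libraries were Nitab4.5_0000817g0030 (r = 0.98), Nitab4.5_0005582g0100 (r = 0.98) and Nitab4.5_0008224g0010 (r = 0.97). Nitab4.5_0005582g0100 averaged 83.2 FPKM in GJ and 103.8 in KJ, against 13.1 in G, 17.5 in K and 12.1 in J. The genes most opposed to it were Nitab4.5_0000031g0400 (r = -0.96), with 6.96 FPKM in GJ and 4.94 in KJ against 58.8 in G, 29.8 in K and 80.2 in J, and Nitab4.5_0002467g0130 and Nitab4.5_0003100g0070 (both r = -0.96). Most like the SnRK2 mean, which includes Nitab4.5_0005632g0010 although it ran against the others, were Nitab4.5_0000040g0400 (r = 0.98), Nitab4.5_0000049g0130 (r = 0.98) and Nitab4.5_0008348g0010 (r = 0.98). Most opposed to that mean were Nitab4.5_0001157g0020 (r = -0.97), Nitab4.5_0005390g0060 (r = -0.96) and Nitab4.5_0018351g0010 (r = -0.96). These genes were picked for their r out of all genes, and the identifiers have no description in the files.

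The genes listed next to the 9 by identifier, with the same first number, are given for comparison. Of 10 such neighbours of 6 of the genes, 7 passed the filter, and their differences from the middle parent were at most 0.47 in size in GJ. In KJ 1 of 7 reached 1, Nitab4.5_0000506g0160, which differed by 1.09 while its neighbour Nitab4.5_0000506g0150 differed by -0.74. Nitab4.5_0000463g0080, next to Nitab4.5_0000463g0070, differed from the middle parent by 0.32 in GJ and 0.60 in KJ, against 1.82 and 2.46 for the PP2C gene itself.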

How the data were processed

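The authors removed short and low-quality reads, mapped the rest to the K326 genome with Tophat2 per the paper (per the labels, HISAT2 and StringTie are listed) and made gene abundances with RSEM, versions not given in the sources used here. The deposited values are the authors' FPKM with 2 decimals, 1 column per library, and column sums from 801594 to 827438 do not exclude a TPM scale. Read counts were not used here, so no counting error is given. The members and lists were chosen with earlier results of these data known. FPKM were taken as log2(FPKM + 1), genes reaching 1 FPKM in 3 or more libraries were fitted by genotype with limma 3.58.1 in R 4.3.3 (trend and robust options, all 15 libraries, no covariate), and Benjamini-Hochberg adjustment ran over all 37232 genes. The fit was also run on simulated data with independent noise, shifts in GJ only and no differences in library scale. That run bears on the working of the fit and not on the calls of the 9 genes. Sums, ratios and correlations were made in Python 3.11.15. No source states whether a library is 1 plant or a pool, so p-values measure the spread between libraries. Named genes are the 9 members, the 3 genes most and least like each family mean, and neighbours by identifier. Alternatives were other constants, filters, scalings, limma options and thresholds, a replicate block, a linear middle parent and leaving out libraries.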

Additional observations from a re-analysis of the deposited data

How the results depend on the processing

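Each member's difference from the middle parent kept its sign under all 464 combinations of member, hybrid and alternative setting. Of these, 444 also kept the call, 14 gained it and 6 lost it. Many of these settings could not change the sign. Other thresholds, filters and limma options leave the difference itself as it was, and so does leaving out a library from outside the cross. The genes were also drawn for this difference, so the kept signs support nothing. The counts of members called against the middle parent (7 in GJ and 6 in KJ) were from 5 to 8 and from 5 to 6 when each library was left out in turn, and those called the same way against both parents (6 and 5) from 4 to 7 and from 5 to 6. For GJ against KJ (1 member called) the count was 2 with unadjusted p and from 0 to 2 without single libraries. For the difference of departures (0) it was 1 with a constant of 0.1 or unadjusted p and from 0 to 1 without single libraries. For G against K (0) it was 1 with no fold threshold and 1 without G replicate 1, J replicate 2 and K replicate 2, and it stayed at 0 for both parents against J. The log2 ratio of PP2C to SnRK2 against the parents (1.27 in GJ and 0.92 in KJ) was 1.71 and 2.12 as a difference of mean log2 values, 2.45 and 3.28 without Nitab4.5_0005632g0010, 1.81 and 2.06 without Nitab4.5_0000647g0160 and Nitab4.5_0008967g0020, and 1.19 to 1.34 and 0.76 to 1.10 without single libraries. Family correlations without single libraries were -0.68 to 0.16 in hybrids, -0.94 to -0.88 in parents and -0.67 to -0.14 among deviations, and -0.62 in parents with median-of-ratios scaling. The correlations without G replicate 1, J replicate 2 and K replicate 2 were added after seeing the data and gave -0.94 in parents and -0.12 among deviations.

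Signs turned only for differences that were not called. For GJ against KJ, Nitab4.5_0000647g0160 was -0.052 with median-of-ratios scaling and -0.10 to 0.35 without single libraries, and Nitab4.5_0000714g0020 -0.21 to 0.29. For the departures, Nitab4.5_0000714g0020 was -0.016 with median-of-ratios scaling and -0.033 to 0.47 without single libraries, and Nitab4.5_0000506g0150 -0.049 with median-of-ratios scaling, -0.050 with quantile normalization and -0.082 to 0.11 without single libraries. Between parents, without single libraries, Nitab4.5_0009622g0010 was -0.17 to 0.41 for K against J and -0.14 to 0.45 for G against K, and for G against J Nitab4.5_0005632g0010 was -0.19 to 0.030 and Nitab4.5_0000506g0150 -0.061 to 0.32. Without the 3 libraries, G against J was 0.0083 for Nitab4.5_0000647g0160 and 0.0099 for Nitab4.5_0008967g0020. The cause of these changes was not tested.

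The replicate block, which fits the replicate number as a term, left the number of calls at 7 for GJ and 6 for KJ against the middle parent and at 1 for GJ against KJ. Same-numbered libraries did not deviate together: 8 of 30 pairs had r over 0.1 and 3 of 15 libraries were most like their own number, so the pairing rests on a number only. The 2 decimals limit values under 1 FPKM, such as those of Nitab4.5_0000506g0150 in the hybrids.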
